A study of Homo sapiens with 11 samples.

Results

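The mRNAs of the AP-1 subunits FOS, FOSB, FOSL1, FOSL2, JUN, JUNB and JUND were examined for binding by ZFP36L2 in human acute myeloid leukaemia cells. The members are the 7 genes of the Fos and Jun families, and every peak carrying one of these gene names in the 4 deposited tables of peaks over input was taken. Of the 7, 6 had at least 1 peak and FOSB had none, out of 6881 gene names with a peak in any table. The members held 55 peaks, which merged to 9 sites of 19914 in all once touching or overlapping peaks of the 4 libraries on the same strand were joined.

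AP-1 is a dimeric transcription factor built of Fos and Jun proteins, which pair through leucine zippers and bind the promoters and enhancers of genes that answer growth, stress and inflammatory signals. Fos proteins need a Jun partner, whereas Jun proteins can also pair among themselves. Several AP-1 mRNAs are made quickly after a stimulus and decay quickly, and the AU-rich elements of the FOS 3' UTR are a classic example of a decay signal. ZFP36L2 is a zinc finger protein of the TIS11 family, which binds AU-rich elements and recruits the enzymes that shorten the poly(A) tail.

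Binding was mapped by eCLIP, in which RNA is crosslinked to protein by ultraviolet light, the protein is immunoprecipitated, and the attached RNA fragments are sequenced. The 2 cell lines, MOLM13 and THP1, are both established monocytic leukaemia lines grown without further treatment, and the labels name no genetic change in either. Each line had 2 immunoprecipitates with the antibody Anti-ZFP36L2/TIS11D and 2 libraries with control IgG, and there were 2 inputs for MOLM13 and 1 for THP1, 11 libraries in all. The input is lysate set aside before the immunoprecipitation. The labels call the libraries duplicates without naming separate cultures, and the spread between duplicates may thus be technical.

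Each fold below is the authors' deposited log2 fold of 1 immunoprecipitate over its input or over IgG, with the authors' −log10 p beside it where it matters. The input tables list a peak only where its log2 fold and its −log10 p both reach 3, and the same thresholds were used over IgG. The IgG lists hold every cluster, from 140287 to 182486 a library, so a member without a peak over input can still have a value over IgG. The input tables hold 14432 and 14425 peaks for the MOLM13 replicates and 19325 and 18901 for the THP1 replicates. No source used here gives read totals. The 4 lists are scaled separately, and the median cluster had a log2 fold over IgG of 0.28 and −0.60 in MOLM13, against 0.0019 and 0.38 in THP1. No RNA level was measured, so where a peak is missing, little mRNA and little binding cannot be told apart.

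Of the 55 AP-1 peaks, 51 lay in 3' UTRs and 4 in coding sequence, all 4 of them on JUND. None was intronic, although introns held 72.7% and 69.6% of all peaks in the MOLM13 tables and 78.1% and 76.9% in the THP1 tables. JUN, JUNB and JUND are genes without introns, so none of their peaks could be intronic. There were 11 and 20 AP-1 peaks in the MOLM13 replicates and 11 and 13 in the THP1 replicates. A gene is called bound in a line here when each of its 2 replicates has a peak. In MOLM13, 5 of the 7 members were bound, namely FOS, FOSL1, FOSL2, JUNB and JUND, against 29.2% of the 13877 genes with a cluster in both replicates. In THP1, 5 of the 7 were bound, namely FOS, FOSL2, JUN, JUNB and JUND, against 32.4% of 14438 genes. FOS, FOSL2, JUNB and JUND were thus bound in both lines, FOSL1 in MOLM13 alone and JUN in THP1 alone.

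Counting 3' UTR peaks only, 5 members were bound in MOLM13, where 10.3% of genes were. In THP1 the count was 4, where 10.4% of genes were, because the JUND peak of replicate 1 is annotated as coding sequence. FOS, FOSL2, JUNB and JUND also passed both thresholds over IgG in each replicate of each line. That made 4 members in MOLM13, against 12.4% of genes, and 4 in THP1, against 20.5%. All these shares cover genes of any length and expression level. They are taken over genes with a cluster on either strand, which can make them lower than shares over same-strand clusters. The members were chosen with results of these data known, so no test of the counts was made.

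**Figure D1:**
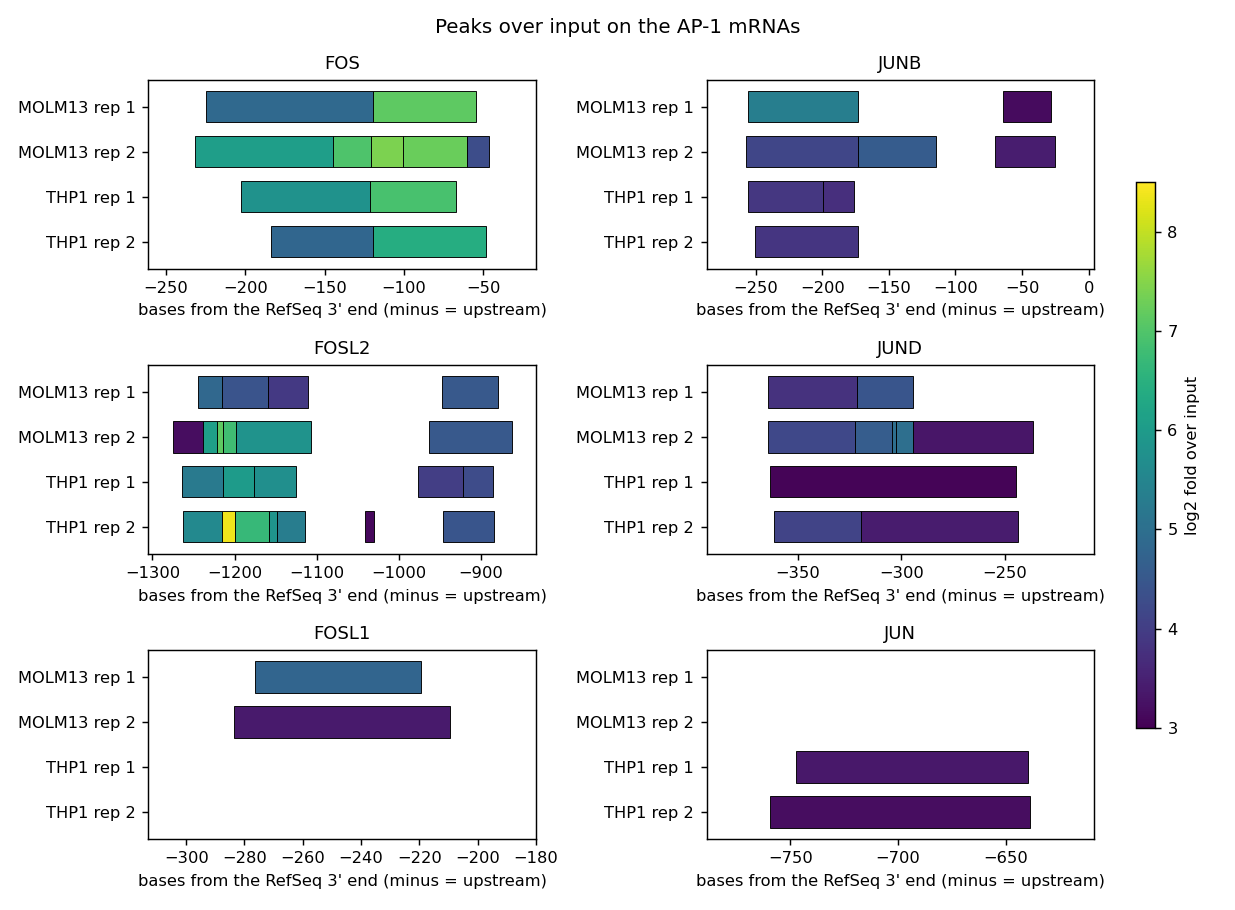
Peaks over input on the 6 AP-1 mRNAs that had any, drawn to scale for each immunoprecipitate, with the horizontal axis in bases from the 3' end of the RefSeq gene and the colour giving the log2 fold over input. The FOS and JUND sites, the first and the third FOSL2 site and the first JUNB site recur in all 4 libraries, while the second JUNB site and the FOSL1 peaks are drawn in MOLM13 rows only and the JUN peaks in THP1 rows only.

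FOS, the first member of its family to be described and the model of a short-lived mRNA, had the highest fold over input of the 7 members in both MOLM13 replicates and in THP1 replicate 1. Its only site covered 185 bases of the 3' UTR on the plus strand of chromosome 14, 75281999 to 75282183 (hg38), which is 47 to 231 bases from the 3' end of the gene. The highest peak of the site reached a log2 fold over input of 7.13 and 7.41 in the MOLM13 replicates, against 6.91 and 6.40 in the THP1 replicates. Over IgG, the same clusters gave 5.14 and 5.47 in MOLM13, against 4.66 and 4.81 in THP1. Both MOLM13 replicates were above both THP1 replicates on either control. The share of all genes whose lines do not overlap was not computed. The order of the lines, here and for the members below, is thus a description and was not tested.

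The site was split into 2 peaks in MOLM13 replicate 1, 5 in MOLM13 replicate 2, and 2 in each THP1 replicate. In all 4 libraries the highest peak began within 3 bases of the same place, at 75282111 and 75282110 in MOLM13 and at 75282109 and 75282111 in THP1. The upstream neighbour of the highest peak was lower in every library, with 4.87 and 6.97 in MOLM13 against 5.81 and 4.79 in THP1. Of the 11 FOS peaks, 10 also passed over IgG. The exception was the outermost peak of MOLM13 replicate 2, 14 bases wide, with 2.92 over IgG and a −log10 p of 1.95. The IgG lists held no FOS cluster outside these peaks in any of the 4 libraries.

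FOSL2, which encodes the Fos-related protein FRA2, carried 22 of the 55 peaks, more than any other member. They formed 3 sites within the 3' UTR on the plus strand of chromosome 2. The first site, 28416042 to 28416210, lies 1107 to 1275 bases from the 3' end. Its highest peak had a log2 fold over input of 4.85 and 7.14 in the MOLM13 replicates, against 6.01 and 8.36 in the THP1 replicates. The 8.36 of THP1 replicate 2 was the highest fold over input of any AP-1 peak, and the replicates of each line differed by more than the 2 line means did. Over IgG the same clusters gave 4.60 and 4.20 in MOLM13, against 6.50 and 5.77 in THP1, with both THP1 replicates above both MOLM13 replicates.

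The third FOSL2 site, 28416341 to 28416454, is 863 to 976 bases from the 3' end, and among the sites with a peak in all 4 libraries its folds over input lay closest together. The folds were 4.51 and 4.52 in MOLM13, against 4.25 and 4.46 in THP1, with both MOLM13 replicates above both THP1 replicates. Over IgG they were 4.26 and 3.17 in MOLM13, against 3.32 and 4.19 in THP1, and the lines overlapped. Between these sites, at 28416276 to 28416286, an 11-base peak was listed in THP1 replicate 2 alone, with 3.12 over input and 2.11 over IgG. Clusters overlapped that position in MOLM13 replicate 2, with 2.40 over IgG, and in THP1 replicate 1, with 1.31, without a peak over input.

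FOSL1, which encodes FRA1, had 1 peak in each MOLM13 replicate and none in THP1. The site is in the 3' UTR on the minus strand of chromosome 11, 65892259 to 65892332, 210 to 283 bases from the 3' end. Folds over input were 4.77 and 3.37 in the MOLM13 replicates. Over IgG they were 2.20 and 3.02, with −log10 p of 2.48 and 2.12, so neither replicate passed both IgG thresholds. THP1 clusters overlapped the same site with 2.26 and 1.55 over IgG and −log10 p of 0.97 and 0.33. Over IgG the lines therefore overlapped, since THP1 replicate 1 was above MOLM13 replicate 1, and the difference over input could not be measured because unlisted peaks have no value.

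FOSB, whose protein shares the zipper of FOS and whose mRNA is also induced within minutes of a stimulus, had no peak over input in any library. Its gene held 1 cluster in each MOLM13 replicate, with log2 folds over IgG of −1.30 and −1.01. Each THP1 replicate had 2, with 0.68 and 0.49 in replicate 1 and 1.70 for both in replicate 2. The highest −log10 p of the 6 clusters was 0.50. The MOLM13 replicate 1 cluster lies at 45469445 to 45469510 on chromosome 19, and the other 5 lie between 45474430 and 45474646.

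JUND, the Jun protein that is expressed most steadily and is least dependent on stimulation, had 1 site on the minus strand of chromosome 19, 18279931 to 18280058. The site is 237 to 364 bases from the 3' end and runs across the boundary of coding sequence and 3' UTR as the tables annotate it. Its highest peak had a log2 fold over input of 4.45 and 5.0 in the MOLM13 replicates, against 3.06 and 4.10 in the THP1 replicates. Over IgG the same clusters gave 5.16 and 5.96 in MOLM13, against 3.18 and 4.78 in THP1. Both MOLM13 replicates were above both THP1 replicates on either control. The lower THP1 value belongs to replicate 1, where a single 119-base peak covers what the other libraries split into 2 or 5 peaks. The order of the lines depends on which peak is taken. The highest peak is annotated as 3' UTR in both MOLM13 replicates and as coding sequence in THP1 replicate 2. The coding peaks had 3.79 and 4.19 over input in the MOLM13 replicates, against 4.10 in THP1 replicate 2. Over IgG they had 4.56 and 4.64, against 4.78, so THP1 replicate 2 was then not below MOLM13.

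The −log10 p over input of JUND stood at 400, the cap of the tables, in all 7 MOLM13 peaks, and between 52.0 and 76.0 in the 3 THP1 peaks. Only 3 other AP-1 peaks, all of FOSL2 in THP1, reached the cap. JUND was also the member whose folds over IgG exceeded those over input throughout, in 10 of 10 peaks, by 0.12 to 0.97 on the log2 scale. Among the other members, 1 of 11 FOS peaks, 3 of 22 FOSL2 peaks and 2 of 8 JUNB peaks did so. For comparison, 29.6% and 15.9% of all 3' UTR peaks had the higher fold over IgG in MOLM13, and 18.0% and 23.6% in THP1.

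JUNB, a Jun protein induced by cytokines and growth factors that can oppose JUN, had 2 sites in its 3' UTR on the plus strand of chromosome 19. The first, 12793058 to 12793200, is 115 to 257 bases from the 3' end. Folds over input were 5.32 and 4.58 in the MOLM13 replicates, against 3.86 and 3.85 in the THP1 replicates, with both MOLM13 replicates above both THP1 replicates. Over IgG they were 3.96 and 3.23 in MOLM13, against 3.69 and 3.51 in THP1, and the lines overlapped. This overlap depends on which peak is taken in MOLM13 replicate 2, where the highest peak over input, 12793142 to 12793200, lies beside the stretch that leads in the other libraries. The MOLM13 replicate 2 peak at 12793058 to 12793141 had 4.16 over input and 4.12 over IgG, and with it both MOLM13 replicates were above both THP1 replicates on either control.

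The second JUNB site, 12793245 to 12793289, ends 26 bases from the 3' end and had a peak in MOLM13 only. Folds over input were 3.17 and 3.44, and over IgG 3.51 and 4.09, so both replicates passed both controls. In THP1 replicate 1 a cluster at this site had 2.68 over IgG with a −log10 p of 2.88 and no peak over input, and THP1 replicate 2 had no cluster there. The replicate 1 values fall just under the IgG thresholds of 3, and no value over input exists to set beside the MOLM13 peaks.

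JUN, the founding Jun protein and the strongest activator among them, had 1 site, listed in THP1 only, on the minus strand of chromosome 1, 58781430 to 58781550. It lies 639 to 759 bases from the 3' end, in the 3' UTR. Folds over input were 3.36 and 3.19 in the THP1 replicates, close above the threshold of 3. Over IgG they were 2.12 and 2.18, with −log10 p of 2.49 and 2.53, so neither passed. MOLM13 clusters overlapped the site with 0.70 and 1.10 over IgG, below both THP1 replicates, and had no peak over input.

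**Figure D2:**
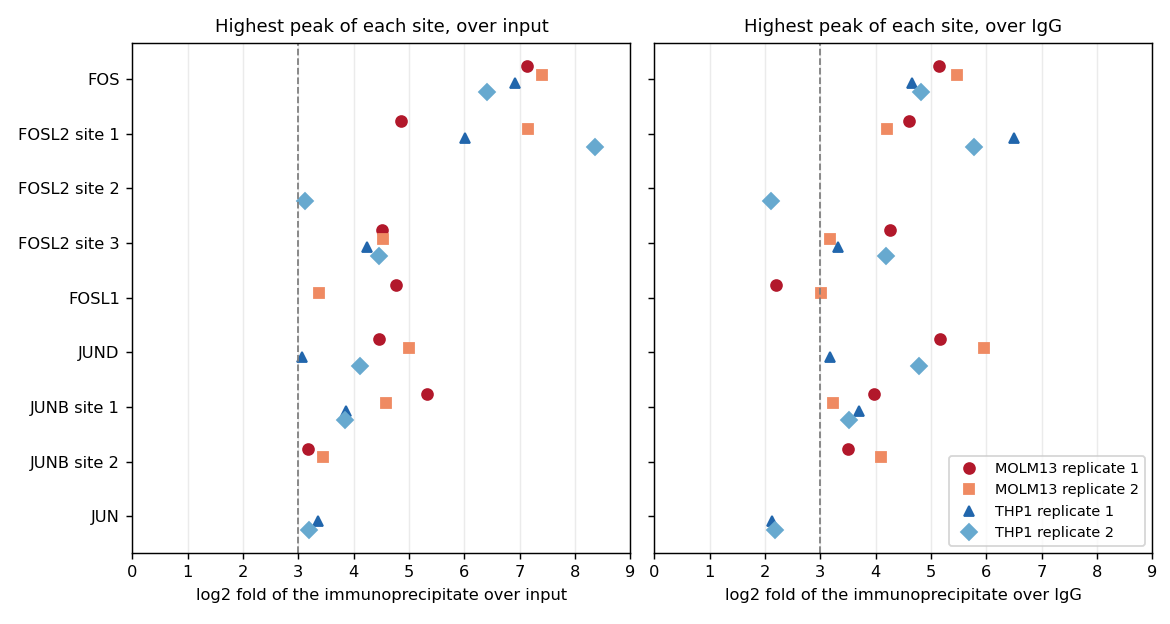
Log2 fold of the highest peak of each of the 9 AP-1 sites over input (left panel) and of the same cluster over IgG (right panel), 1 point per immunoprecipitate, with the threshold of 3 dashed and no point where a library listed no peak over input. FOS and the first FOSL2 site lie highest over input in 3 of the 4 libraries, with the first JUNB site above FOSL2 in MOLM13 replicate 1, and FOSL1, JUN and the second FOSL2 site have points below the dashed line over IgG.

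Peaks recurred between replicates. All 11 AP-1 peaks of MOLM13 replicate 1 overlapped an AP-1 peak of replicate 2, against 78.4% of all its peaks. All 11 of THP1 replicate 1 overlapped one of replicate 2, against 81.8% of all its peaks. In the other direction 18 of 20 peaks of MOLM13 replicate 2 and 12 of 13 of THP1 replicate 2 overlapped one of replicate 1. No share of all replicate 2 peaks was computed to set beside these 2 counts. Because neighbouring peaks touch, these counts exceed the number of sites.

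Over IgG, 48 of the 55 AP-1 peaks passed both thresholds. Among 3' UTR peaks the counts were 9 of 10 and 16 of 19 in the MOLM13 replicates, where 58.8% and 49.6% of all 3' UTR peaks passed. In the THP1 replicates they were 9 of 10 and 10 of 12, where 54.4% and 64.9% passed. The 7 peaks that missed were both FOSL1 peaks, both JUN peaks, the outermost FOS peak of MOLM13 replicate 2, and 2 FOSL2 peaks. Peaks of 1 site share the same mRNA and control reads, so they are not independent.

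**Figure D3:**
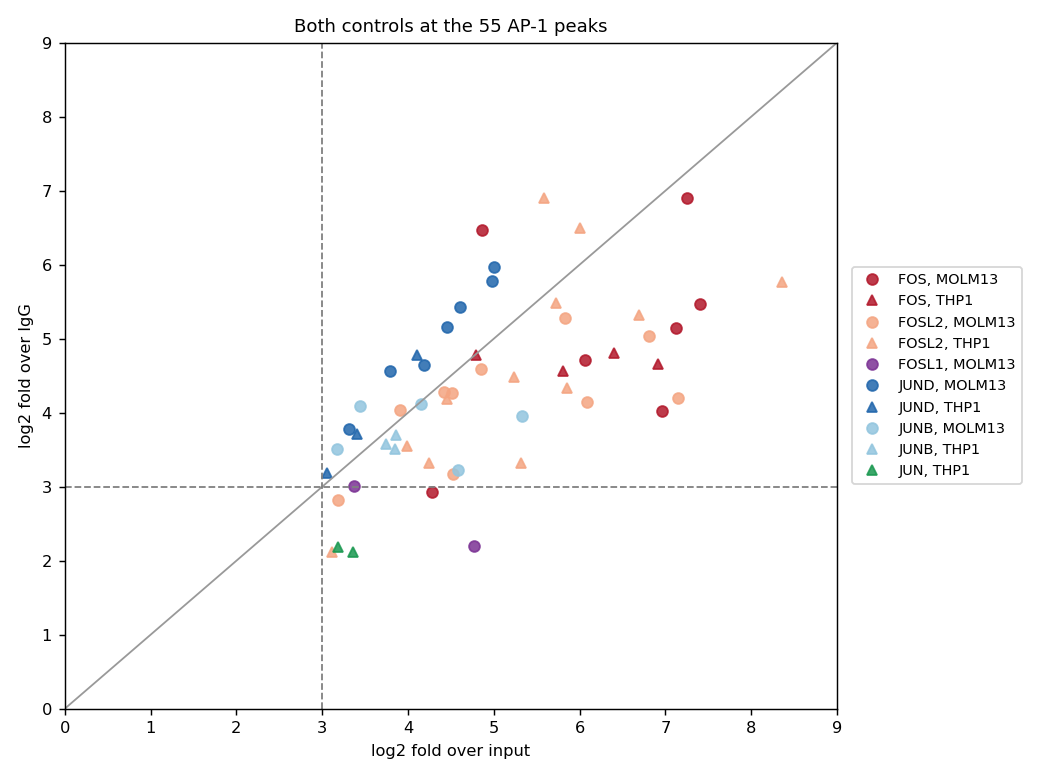
Each of the 55 AP-1 peaks by its log2 fold over input (horizontal) and over IgG (vertical), coloured by gene, with circles for MOLM13, triangles for THP1, dashed lines at the thresholds of 3 and a solid line of equal folds. The 10 JUND peaks all lie above the solid line, and 10 of the 11 FOS peaks lie below it.

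Clusters that did not pass over input had low folds over IgG on most members. Across the 7 genes the IgG lists held 105 clusters, 68 of them within the span of the peaks. Of the 50 clusters with no peak over input, 31 had a positive fold over IgG and 2 passed the IgG thresholds. The median of the 50 was 0.69, and the median of the 55 peaks was 4.26. Both folds use the same immunoprecipitate, so peaks picked by their fold over input lie higher over IgG by construction. No share of all unlisted clusters was computed to set beside these counts. The FOSL1 gene held 14 such clusters, with folds over IgG from −3.32 to 2.26, and JUN held 8, from −1.28 to 1.87. All 6 on JUNB were positive, between 1.65 and 2.68.

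The folds of a cluster over its 2 controls were related in a way that bears on their precision, a feature looked for after the data were seen. The 2 folds of a peak differed by steps that match ratios of small whole numbers. With 1 constant per list, both folds could be written as ratios of whole reads for 99.99% of the peaks of each of MOLM13 replicates 1 and 2 and THP1 replicate 1, and for 99.95% of those of THP1 replicate 2 (relative tolerance 1e-09). With the scale shifted by 0.1, the fold over IgG could be written so for at most 0.25% of peaks. The fold over input was not checked with a shift. If the folds are such ratios, the lowest whole numbers that give both can be read off, although the true counts may be multiples of them and a control at 1 may stand for a count of 0. They are given as a description only, without intervals.

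On this reading the FOS folds rested on few control reads. The lowest counts at the highest FOS peak of MOLM13 replicate 1 were 523 immunoprecipitate reads, 3 input reads and 6 IgG reads, and in MOLM13 replicate 2 they were 805, 2 and 3. In THP1 replicate 1 they were 253, 1 and 2, and in THP1 replicate 2 they were 260, 2 and 3. Over all FOS peaks the input ranged from 1 to 6 lowest reads. At 1 or 2 lowest input reads, 1 read more or less can move the log2 fold by more than the difference between lines. FOSL2 peaks had 1 to 13 lowest input reads and FOSL1 and JUN peaks 1 to 3.

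JUND stood on more reads, with 423 to 2884 in the immunoprecipitates, 10 to 71 in the inputs and 2 to 21 in the IgG libraries as lowest counts. JUNB lay between, with 3 to 27 input and 1 to 17 IgG reads. Of the 55 peaks, 30 had under 6 lowest input reads and 36 under 6 lowest IgG reads. JUND thus combined the largest recovered counts with moderate folds over input, and FOS had high folds over few input reads.

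The difference between lines was set beside that of other genes. Over input, MOLM13 minus THP1 in the mean log2 fold of the highest peak was 0.61 for FOS, from 7.27 ± 0.20 for MOLM13 against 6.66 ± 0.36 for THP1 (SD, n = 2 for each line). For the first JUNB site it was 1.10, from 4.95 ± 0.53 in MOLM13 and 3.85 ± 0.01 in THP1. This JUNB difference takes 4.58 for MOLM13 replicate 2, where the stretch that leads in the other libraries had 4.16, so it would be smaller on that stretch. For JUND it was 1.14, from 4.72 ± 0.39 in MOLM13 and 3.58 ± 0.74 in THP1, with the highest peak on different stretches of the site in the 2 lines. The first FOSL2 site gave −1.19, from 5.99 ± 1.63 in MOLM13 and 7.18 ± 1.66 in THP1, a difference smaller than the spread within either line.

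Among the 1034 genes with a 3' UTR peak in all 4 libraries the same difference had a median of −0.10, and its central 90% ran from −1.28 to 1.22. JUNB exceeded 93.8% of those genes, FOS 82.7% and FOSL2 6.38%, and all 3 lay within the central range. An exact permutation test of 2 against 2 libraries cannot give a two-sided p below 0.333, so none was run. Whether both THP1 immunoprecipitates were set against the same input library is not stated in the labels. Among 25 peaks with identical coordinates in both THP1 tables and at least 5 lowest input reads in either, 1 had equal lowest input reads in both, and in MOLM13 it was 1 of 23. True counts may be multiples of the lowest reads, so unequal values can also come from a shared input and this comparison cannot settle the question.

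FOS stood near the top of all genes by its highest 3' UTR peak over input. It ranked 37 of 1890 and 33 of 1829 genes in the MOLM13 replicates, against 64 of 1912 and 109 of 1885 in the THP1 replicates. FOSL2 ranked 436 and 45 in MOLM13, against 162 and 7 in THP1. JUNB ranked 263 and 595 in MOLM13 and sat below the middle in THP1, at 1186 and 1183. By 3' UTR peaks JUND ranked 635 and 419 in MOLM13 and 1564 in THP1 replicate 2. JUN, at 1628 and 1714, was among the lowest genes listed in THP1, and FOSL1 ranked 460 and 1518 in MOLM13.

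By the fold over IgG of the same clusters the order of members changed. JUND ranked 100 and 26 in MOLM13, and 843 in THP1 replicate 2. FOS ranked 104 and 61 in MOLM13, against 228 and 298 in THP1. FOSL2 ranked 244 and 326 in MOLM13, against 11 and 93 in THP1. By this measure JUND was the highest member in both MOLM13 replicates and FOSL2 in both THP1 replicates. By each member's highest cluster over IgG, FOS led in MOLM13 instead, with 6.47 and 6.90 against 5.16 and 5.96 for JUND, and FOSL2 again led in THP1, with 6.50 and 6.90.

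**Figure D4:**
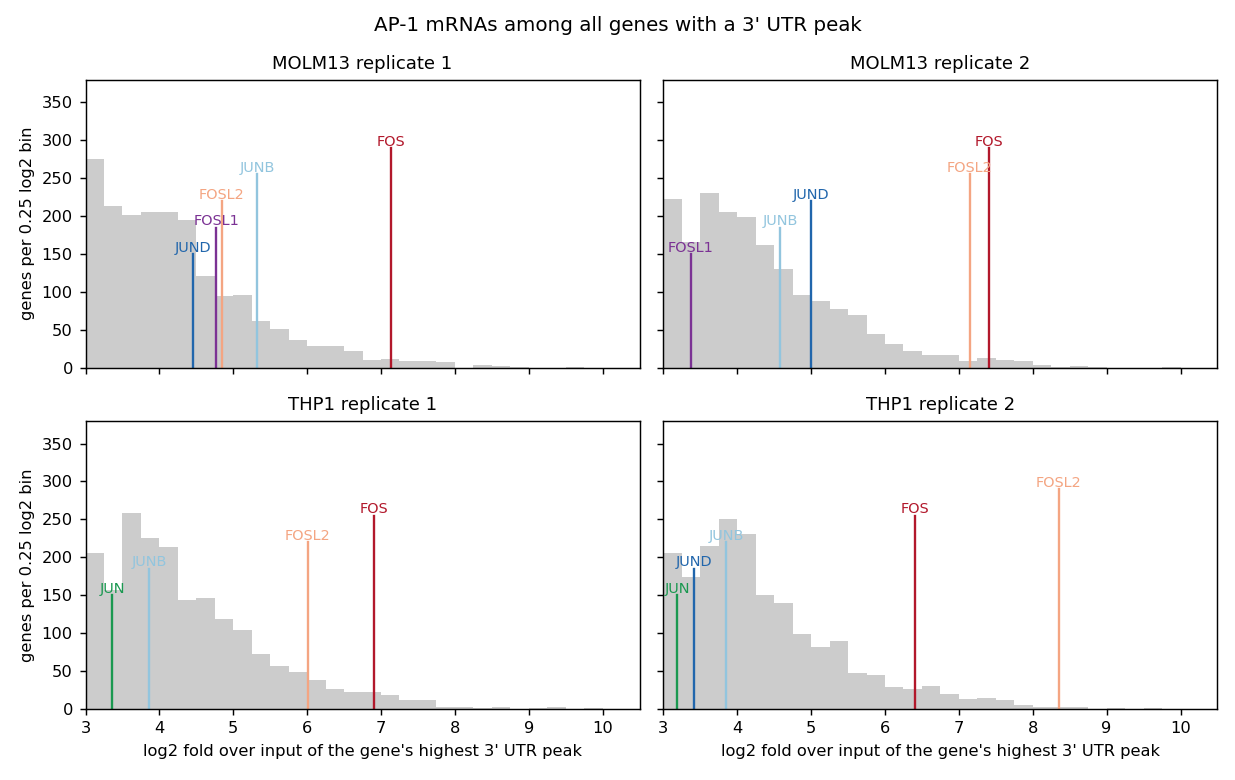
Number of genes (vertical, bins of 0.25) by the log2 fold over input of their highest 3' UTR peak (horizontal) in each immunoprecipitate, in grey, with the AP-1 members marked by coloured lines whose height has no meaning. FOS lies in the right tail in all 4 libraries and FOSL2 in 3 of them, while JUN lies at the left edge in THP1.

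The genes most like each member were found by the distance over 8 values, the fold over input of the highest 3' UTR peak and the fold over IgG of the same cluster in each of the 4 libraries, among 1031 genes with all 8. Closest to FOS were ADCY9, an adenylyl cyclase, at a distance of 0.65, and CREB3L2, a bZIP transcription factor, at 1.46, where the median gene was 6.23 away. Closest to FOSL2 were MTPN, which encodes myotrophin, at 2.18, and ZFP36L2 itself at 2.47, with a median of 6.48. Closest to JUNB were SMAD7, an inhibitor of TGF-beta signalling, at 0.73, and ZFYVE26 at 1.17, with a median of 2.99. JUND lacked a 3' UTR peak in THP1 replicate 1 and could not be compared in this way.

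Genes around AP-1 were counted in 5 lists of 92 genes. In MOLM13, 30 of the 67 with a cluster in both replicates were bound over input (44.8%), and in THP1 35 of 74 (47.3%), both above the shares of all genes given earlier. Counting 3' UTR peaks, 18 were bound in MOLM13 (26.9%, against 10.3% of all genes) and 21 in THP1 (28.4%, against 10.4%). Over both controls 14 were bound in MOLM13 (20.9%, against 12.4% of all genes) and 30 in THP1 (40.5%, against 20.5%). In all, 27 were bound in both lines, for which no share of all genes was computed. The lists were written with results of these data known, so these counts are a description.

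Among dimer partners of the ATF, BATF, JDP and MAF families, 8 of 16 were bound in MOLM13 (50%, against 29.2% of all genes) and 7 of 19 in THP1 (36.8%, near the 32.4% of all genes). Counting 3' UTR peaks, 4 were bound in MOLM13 (25%, against 10.3% of all genes) and 4 in THP1 (21.1%, against 10.4%). Over both controls 4 were bound in MOLM13 (25%, against 12.4% of all genes) and 5 in THP1 (26.3%, against 20.5%). The 7 bound over input in both lines were ATF2, ATF6, CREB1, CREM, MAFF, MAFG and MAFK. ATF2, ATF6 and CREM were not bound in the 3' UTR in either line. CREM and MAFF were bound over both controls in neither line, and ATF6 in THP1 only. The highest 3' UTR peak of MAFK, a small MAF protein without an activation domain of its own, had 6.61 and 7.44 over input in MOLM13, against 6.99 and 6.26 in THP1. MAFG, its close relative, had 5.97 and 6.99 in MOLM13, against 5.55 and 5.80 in THP1. Each gene had a peak past both controls in every library, although the highest MAFG peak of THP1 replicate 1 had no value over IgG.

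Among kinases and phosphatases upstream of AP-1, 7 of 21 were bound over input in MOLM13 and 8 of 22 in THP1, close to the shares of all genes. Counting 3' UTR peaks, 2 were bound in MOLM13 (9.52%, against 10.3% of all genes) and 2 in THP1 (9.09%, against 10.4%). Over both controls 3 were bound in MOLM13 (14.3%, against 12.4% of all genes) and 8 in THP1 (36.4%, against 20.5%). Those bound in both lines included DUSP1, MAP2K1, MAP3K5, MAPK14, MAPK8 and RPS6KA3. Of these named genes, only DUSP1 and MAP2K1 were bound in the 3' UTR. DUSP1, MAP3K5 and RPS6KA3 were not bound over both controls in MOLM13. DUSP1, a phosphatase that switches off MAP kinases and is itself an immediate early gene, had 5.14 and 5.08 over input in MOLM13, against 4.99 and 4.51 in THP1. Over IgG it had 4.16 and 2.72 in MOLM13, against 3.75 and 3.51 in THP1, so MOLM13 replicate 2 fell short there.

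The list of 7 transcription factors of the serum response holds SRF, its partners and TCF3, an E protein that is not one of the ternary complex factors and was not bound in either line. Of these 7, 4 were bound in MOLM13 (57.1%, against 29.2% of all genes) and 5 in THP1 (71.4%, against 32.4%). Over both controls 3 were bound in MOLM13 (42.9%, against 12.4%) and 5 in THP1 (71.4%, against 20.5%). ELK1, ELK4, MRTFA and SRF were bound over input in both lines. ELK1, a ternary complex factor that joins SRF on the FOS promoter, had 6.64 and 6.73 over input in MOLM13, against 6.39 and 7.58 in THP1. Other immediate early genes gave 3 of 12 in MOLM13 (25%, against 29.2% of all genes) and 6 of 15 in THP1 (40.0%, against 32.4%). Counting 3' UTR peaks, they gave 3 of 12 in MOLM13 (25%, against 10.3% of all genes) and 5 of 15 in THP1 (33.3%, against 10.4%). Over both controls 1 of 12 was bound in MOLM13 (8.33%, against 12.4% of all genes) and 4 of 15 in THP1 (26.7%, against 20.5%). KLF2 and ZFP36 were bound in both. ZFP36, the paralogue that gave the family its name, had 7.81 and 7.47 in MOLM13, against 7.01 and 8.11 in THP1. Its values exceeded those of FOS in each library.

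Among reported transcriptional targets of AP-1, 8 of 11 were bound in MOLM13 (72.7%, against 29.2% of all genes) and 9 of 11 in THP1 (81.8%, against 32.4%). Over both controls 3 of 11 were bound in MOLM13, against 12.4% of all genes, and 8 of 11 in THP1, against 20.5%. Bound in both lines were BCL2L11, CD44, CXCL8, IL1B, PLAUR, VEGFA and VIM, of which CD44, CXCL8, IL1B and VIM were not bound over both controls in MOLM13. VEGFA, the angiogenic growth factor, had 7.33 and 7.13 over input in MOLM13, against 7.59 and 7.57 in THP1. PLAUR, the urokinase receptor, had 5.80 and 6.81 in MOLM13, against 6.38 and 5.39 in THP1. CXCL8, the neutrophil chemokine interleukin 8, had 4.89 and 5.15 in MOLM13, against 9.15 and 7.72 in THP1. Over IgG CXCL8 had 0.91 and −0.29 in MOLM13, against 6.58 and 5.82 in THP1, so its MOLM13 peaks passed over input and missed the thresholds over IgG. The difference between lines was not tested.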

How the data were processed

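The authors deposited, for each of 4 immunoprecipitates, a table of log2 folds and −log10 p values over input with gene and region names, and a list of log2 folds and −log10 p values of all clusters over IgG. Per the submitters' processing notes, cutadapt 1.14, STAR 2.5.0c, Picard 2.6.0 and edgeR were used. The peak caller, the test behind the p and the scaling of the folds are not stated in the labels or file headers. The deposited files carry hg38 contig names. IgG lists were tied to input tables by identical cluster coordinates, shared by at least 99.8% of peaks, and 29, 29, 19 and 30 peaks (MOLM13 replicates 1 and 2, then THP1), none of a member, had no value over IgG. Starts are printed 1-based.

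Genes were placed with the RefSeq table of GRCh38.p14. Of 6881 gene names 6271 matched, and 98.2% of their peaks fell within the matched gene. Python 3.11.15 and pandas 2.3.3 were used, and interval functions were tested on simulated data. The 7 members were all named. Pathway genes were named where bound in both lines, except 1 that is not reported here, with values for the 8 with the highest lowest-library 3' UTR fold. Members and lists were chosen with earlier results of these data known. No sequence or AU-rich motif was examined, since no genome was used here. Alternatives were a stricter threshold, single replicates, same-site overlap, other overlap or merging rules, and other IgG thresholds or centring.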

Additional observations from a re-analysis of the deposited data

Results flagged for a closer look

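Some clusters passed both thresholds over IgG without being listed over input, both in MOLM13 replicate 1 and both at the edge of a site described above. The FOSL2 cluster at 28416050 to 28416072 on chromosome 2 had a log2 fold over IgG of 3.09. The JUND cluster at 18279928 to 18279988 on chromosome 19 had 3.35. In MOLM13 replicate 2 the overlapping stretch of each gene was listed over input, with 3.18 for FOSL2 and 3.31 for JUND.

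The highest FOSB cluster had the opposite sign over IgG in the lines, with −1.30 and −1.01 in the MOLM13 replicates, against 0.68 and 1.70 in the THP1 replicates. The clusters lie at different positions and none passed a threshold. The −1.01 of MOLM13 replicate 2 was the commonest fold of its list, held by 36177 clusters, and the lists are scaled separately. The difference between lines was not tested.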

How the results depend on the processing

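Of 46 alternative values, 38 stayed within 1.5 times the reported count and 8 did not. Single replicates, a lower IgG fold or added coding sequence can only keep or raise a count of bound members. Such alternatives do not check whether that count could fall. With thresholds over input raised to 4 for the log2 fold and 5 for the −log10 p, the reproducible peaks came to 7 in MOLM13 and 6 in THP1. The THP1 members bound over input then came to 2, in the 3' UTR to 2, and over both controls to 2, FOS and FOSL2 in each case. MOLM13 lost FOSL1 and kept the other 4. Merging touching peaks first also gave 7 reproducible sites in MOLM13 and 6 in THP1, by construction. Without 1 replicate, reproducible peaks ranged from 11 to 20 in MOLM13, the 20 being all peaks of replicate 2, and from 11 to 13 in THP1. Counting coding sequence with the 3' UTR, an alternative chosen after seeing the data, gave 5 members in MOLM13 and 5 in THP1, JUND included. Requiring the same site, a log2 fold of 1 over IgG or centred IgG folds left the reported members unchanged. The count of AU-rich motifs and its alternatives were not run. No paired analysis was possible because the files hold the authors' comparisons per immunoprecipitate and no result comes from a test. Few control reads limit the precision of the FOS and FOSL2 folds.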
